A study of Mus musculus with 12 samples.

Results

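The genes of the epithelial-mesenchymal transition (EMT) examined here are 10 of the 24906 genes listed in the expression tables. They are a list of named genes, not picked by a threshold on their values but chosen with earlier results of these data known. The list holds the epithelial adhesion genes Cdh1 and Epcam, the mesenchymal genes Cdh2, Vim and Fn1, and the transcription factor genes Zeb1, Zeb2, Snai1, Snai2 and Twist1. All 10 were found in both tables. RNA-Seq had been performed on 12 libraries of tumor organoids from the small intestine of Smad4f/f; BRAFV600E/+; Villin-CreERT2 mice, with 6 libraries from organoids in BME, a basement membrane extract that holds organoids in 3D, and 6 from organoids on plastic. All libraries carry the genotype label Smad4KO;BRAFV600E/+;pINDUCER-SMAD4, so the controls also lack Smad4, carry the activated BRAF allele and hold the lentiviral construct from which doxycycline (dox) induces SMAD4. Dox libraries received 4 µg/mL for 48 h, and untreated libraries received none. In BME there were untreated libraries of lines 682, 700 and 889, dox libraries of lines 700 and 889, and 1 library of line 682 labelled as mock, with dox at the same 4 µg/mL. On plastic, lines 560, 700 and 889 each gave 1 untreated and 1 dox library.

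Villin drives the Cre recombinase in the intestinal epithelium, so Smad4 was deleted and BRAF activated in epithelial cells, at 6 to 8 weeks of age per the general statement in the study's methods. Tumor organoids were derived 3 to 6 months after tamoxifen by a general statement that does not name these lines. Each line is taken to come from 1 animal and was selected with puromycin after transduction, and the line is the replicate. The label of the mock library conflicts with its title and genotype, which read like those of an induced library. It was kept with the controls, as the study does. The arms in BME are therefore 2 dox and 4 control libraries. The comparison asks how expression of SMAD4 changes the EMT genes in each environment.

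EMT is a program in which epithelial cells loosen their junctions, lose apical-basal polarity and gain the cytoskeleton, matrix and motility of mesenchymal cells. Its core is repression: factors of the SNAI, ZEB and TWIST families bind E-boxes (CANNTG), of which SNAI and ZEB factors prefer CACCTG or its reverse complement CAGGTG, and turn down genes such as Cdh1 and Epcam. TGFβ, whose signal SMAD4 carries into the nucleus, is a classical inducer of the program, and in the gut it also limits growth of the epithelium.

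Promoter sequence is shown for 3 genes because these letters are what the factors among the 10 genes are known to read: an epithelial target (Epcam), a factor known to act on its own promoter (Snai1) and a mesenchymal gene for contrast (Vim). Of the 10 genes, 5 (Epcam, Vim, Zeb2, Snai1 and Twist1) had an entry in the RefSeq table of promoters (GRCm38.p6). Each run holds the 250 bases before the annotated start, 5′ to 3′, all on the + strand, with CANNTG matches in capitals. They lie at chr17:87635729-87635978 for Epcam, chr2:167537945-167538194 for Snai1 and chr2:13574061-13574310 for Vim.
Epcam: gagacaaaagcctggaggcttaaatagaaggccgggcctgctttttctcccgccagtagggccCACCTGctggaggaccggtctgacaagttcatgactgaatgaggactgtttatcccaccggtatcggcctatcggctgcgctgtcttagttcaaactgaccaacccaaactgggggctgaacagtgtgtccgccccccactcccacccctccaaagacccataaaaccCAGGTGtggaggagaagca
Snai1: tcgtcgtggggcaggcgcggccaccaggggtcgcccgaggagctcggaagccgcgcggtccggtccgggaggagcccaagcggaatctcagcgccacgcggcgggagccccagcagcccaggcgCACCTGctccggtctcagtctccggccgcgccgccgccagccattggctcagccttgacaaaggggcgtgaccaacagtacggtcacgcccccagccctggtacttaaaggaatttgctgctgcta
Vim: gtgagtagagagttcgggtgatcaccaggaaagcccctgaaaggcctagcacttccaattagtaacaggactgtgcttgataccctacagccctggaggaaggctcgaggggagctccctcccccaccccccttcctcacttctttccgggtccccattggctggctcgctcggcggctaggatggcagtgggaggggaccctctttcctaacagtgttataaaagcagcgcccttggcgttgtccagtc
Epcam held CACCTG at position -187 and CAGGTG at -19, counted from the start site to the first base of the match. Snai1 held CACCTG at -126. In Vim, Zeb2 and Twist1 no CANNTG match was found in these windows. Both strands are covered, since the reverse complement of CANNTG is CANNTG. Of 32851 windows of this length, 66.2% held CANNTG and 17.2% held CACCTG or CAGGTG, which is a subset of the first. A match is a description of the letters and not a binding site.

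In the NCBIM37 (mm9) annotation, Cdh1 lies on chromosome 8 from 109127251 to 109194146, Epcam on 17 from 88035319 to 88050446, Fn1 on 1 from 71632094 to 71699774, Vim on 2 from 13495554 to 13504453 and Cdh2 on 18 from 16747386 to 16967755. Of the factor genes, Zeb1 lies on 18 from 5591858 to 5775465, Zeb2 on 2 from 44839154 to 44972915, Snai1 on 2 from 167363695 to 167368314, Snai2 on 16 from 14705945 to 14709488 and Twist1 on 12 from 34642536 to 34644682.

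Levels are given in FPKM, a fragment number divided by transcript length and library depth, so that genes of different length can be compared. The depth rebuilt from the steps between low FPKM values was between 16717902 and 19066510 reads for each BME library and between 19477924 and 25402483 for each plastic library, and the reads given below for low genes are such estimates. Smad4 was higher with dox in all 5 dox pairs, at 6.23 to 8.88 FPKM in untreated and 17.2 to 27.3 in dox libraries in BME, and at 1.54 to 4.76 and 18.1 to 73.6 on plastic. In the mock library Smad4 stood at 10.3, against 8.88 in its untreated partner. The organoid label was checked against 12 markers of intestinal epithelium. At least 11 of them were above 0 in every library, and Cdx1 was the one at 0 where one was missing.

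The libraries were strongly epithelial with and without dox. Cdh1 and Epcam lay at percentiles 97.1 to 99.4 of all listed genes in the 12 libraries, while 4 of the 5 factor genes stayed under 1 FPKM in BME. On plastic, Zeb1 was at 1.19 to 3.37 FPKM with dox and Twist1 reached 5.29 without dox. Fn1 stood above Cdh1 and Epcam in dox line 700 on plastic. With dox, Zeb1 was higher in every pair, most on plastic (1.53 ± 0.30, limma estimate ± SE on the log2(FPKM + 1) scale, adjusted p = 0.275), and Cdh2 was higher in every pair, although the BME pair of line 700 holds 1 read in each library. Fn1 was higher with dox in 4 of 5 pairs, and also in the mock pair. No member passed the test in either environment.

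**Figure D1:**
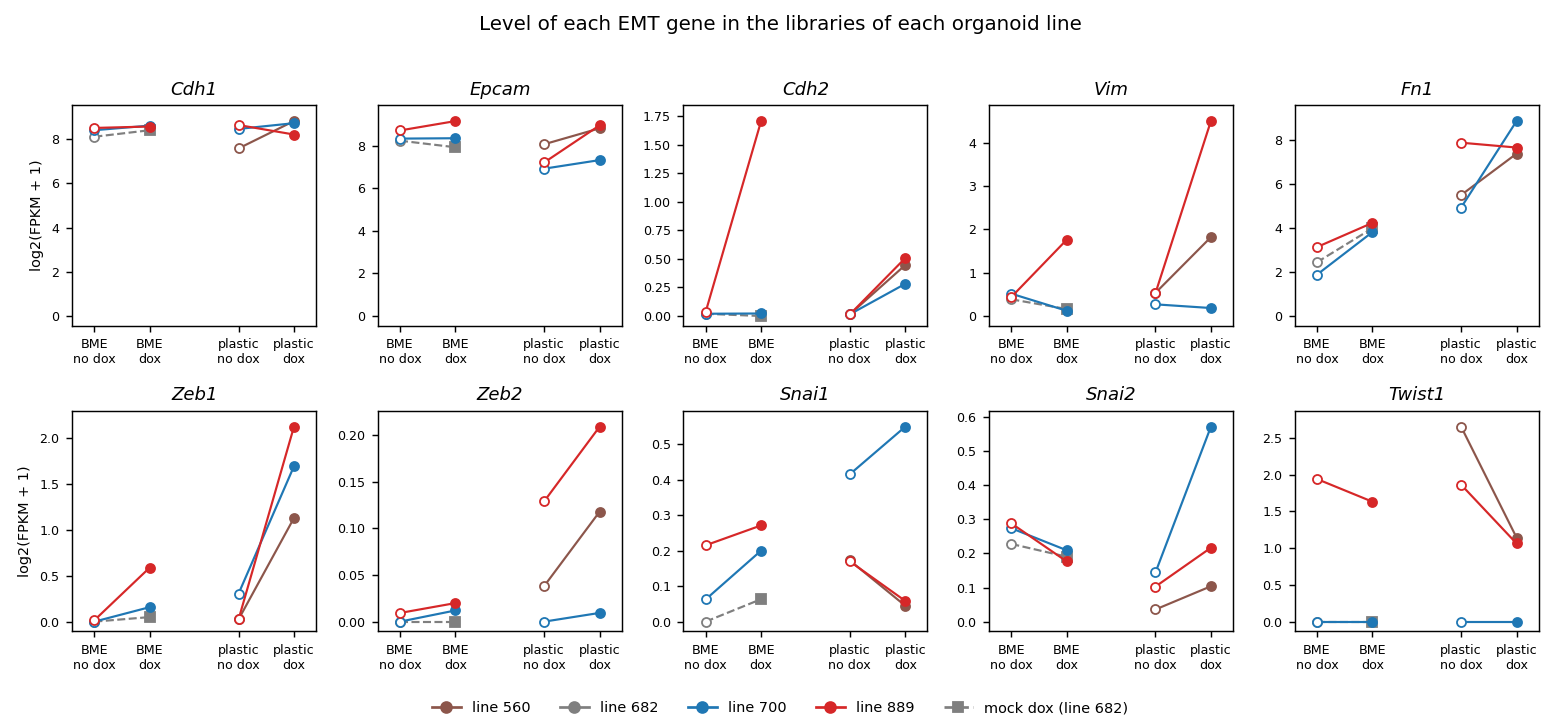
Level of each EMT gene, as log2(FPKM + 1) on an axis of its own for each gene, in untreated (open) and dox (filled) libraries, with the libraries of 1 organoid line joined. Dashed lines and squares are the mock pair of line 682. Zeb1 is higher with dox in all 5 dox pairs, and Twist1 is at 0 in lines 682 and 700.

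Genes with a mean of at least 0.5 FPKM over the 6 libraries of an environment were tested with limma. Calls required both an adjusted p below 0.05 and a change of more than 1 in size, where every change is on the log2(FPKM + 1) scale and understates that of low genes. This left 5 of the 10 genes in BME (Cdh1, Epcam, Vim, Fn1 and Twist1), and these with Zeb1 on plastic. In BME 0 members were called, against 0.0231% of 12996 tested genes, and 0 passed the unadjusted threshold (p below 0.05 with the same size of change), against 0.954%. In the limma fit with organoid line as a block, Fn1 passed the unadjusted threshold in BME (1.52 ± 0.54, limma unadjusted p = 0.0385, adjusted p = 0.672), as did 157 of the 12996 genes. With the block and no filter Fn1 did not pass (limma unadjusted p = 0.0673). On plastic 0 were called, against 0.0324% of 12333 genes, and 1 (Zeb1) passed the unadjusted threshold, against 3.64%. In limma-voom with the block, Vim (unadjusted p = 0.00753), Twist1 (unadjusted p = 0.0119) and Zeb1 (unadjusted p = 0.00532) passed it on plastic, where 942 of the 12333 genes did. Zeb1 on plastic, and Vim in both environments, passed the filter only through dox libraries (Vim averaged 0.302 FPKM in BME controls and 0.364 in plastic ones), so their place among the tested genes is no support for a difference.

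The separation of the arms was counted for all 10 genes. The shares of all genes beside these counts are a description and no test, since the list was chosen with earlier results known. In BME, 3 (Cdh1, Zeb1 and Zeb2) had both dox libraries above every control, a pattern shown by 5.52% of 19095 genes above 0. Both lay below for 0 of the 10, against 4.95%. After rescaling all libraries to an equal FPKM sum, the BME arms of Cdh1 overlapped. On plastic, 2 (Cdh2 and Zeb1) had the 3 dox libraries above every untreated one, against 6.37% of 19071 genes, and 0 had them below, against 6.39%. Of the 10 genes, 4 (Epcam, Cdh2, Zeb1 and Zeb2) were higher with dox in all 5 dox pairs, against 6.9% of 18084 genes above 0 in both tables, and 0 were lower in all 5, against 6.33%. Zeb1 alone was in each of these 3 groups of higher genes. For Zeb2 these orders rest on 0 to 2 reads per library in BME, and for Cdh2 the BME pair of line 700 holds 1 read in each library. The 5 dox pairs are not 5 lines, since lines 700 and 889 gave a pair in each environment. After rescaling all libraries to an equal FPKM sum, Epcam was lower with dox in the BME pair of line 700, so the count of 4 depends on the scaling.

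Cdh1 encodes E-cadherin, the adhesion receptor of epithelial adherens junctions. In BME, Cdh1 stood at 276 FPKM in untreated line 682, 339 in untreated line 700, 364 in untreated line 889, 339 in the mock library, 392 in dox line 700 and 381 in dox line 889. On plastic, untreated libraries held 191 (line 560), 353 (line 700) and 399 (line 889), and dox libraries 452, 423 and 296 in the same order of lines. Both dox libraries in BME lay above the 4 controls, while on plastic the arms overlapped and line 889 was lower with dox. The order in BME depended on the scaling. After rescaling to an equal FPKM sum, dox line 700 (596) lay below the mock library (617) and untreated line 889 (635). The mean in BME was 386 ± 7.31 with dox (SD, n = 2) and 329 ± 37.4 in controls (SD, n = 4). The limma change was 0.24 ± 0.16 in BME (SE, adjusted p = 0.959) and 0.36 ± 0.34 on plastic (adjusted p = 0.843). The pair of line 682, where the dox library is the mock one, differed by 0.29 for Cdh1, more than the 0.21 and 0.07 of the dox pairs in BME. Without the untreated library of line 560, the plastic change was 0.03.

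Epcam encodes an epithelial adhesion protein of the lateral membrane, whose promoter letters are given above. In BME, its untreated libraries held 300 (line 682), 321 (line 700) and 419 FPKM (line 889), the mock library 242, and the dox libraries 325 (line 700) and 569 (line 889). The plastic libraries held 267 (line 560), 120 (line 700) and 147 (line 889) without dox, and 449, 159 and 495 with dox. Epcam was thus higher with dox in all 5 dox pairs and lower in the mock pair, and the arms overlapped in both environments. After rescaling to an equal FPKM sum, the BME pair of line 700 was lower with dox, at 494 against 514 without. The pair changes of Epcam ran from 0.02 to 0.44 in BME and from 0.41 to 1.74 on plastic, with line 889 highest in each. The limma change was 0.45 ± 0.30 in BME (adjusted p = 0.959) and 0.97 ± 0.52 on plastic (adjusted p = 0.673). Without dox line 889 the change of Epcam was 0.05 in BME and 0.67 on plastic, and without dox line 700 it was 0.85 and 1.49. With the replicate block it was 0.23 in BME.

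Cdh2 encodes N-cadherin, the cadherin that mesenchymal and neural cells carry in place of E-cadherin. In BME it was listed at 0.0135 (line 682), 0.0138 (line 700) and 0.025 FPKM (line 889) without dox, at 0 in the mock library, and at 0.0154 (line 700) and 2.27 (line 889) with dox. These values rest on 0 to 2 reads in 5 of the 6 libraries and on 177 reads in dox line 889. On plastic, Cdh2 was at 0.00988 (line 560), 0.0104 (line 700) and 0.0097 (line 889) without dox, each from 1 read, and at 0.363, 0.216 and 0.422 with dox, from 37, 18 and 33 reads. Dox libraries on plastic therefore lay above the untreated ones in all 3 lines, while in BME a single line carried nearly all of the signal. Cdh2 lay under the filter in both tables. Without the filter its change on plastic was 0.40 ± 0.06 by limma (adjusted p = 0.224), with an exact permutation p of 0.1 (two-sided), the smallest that 3 against 3 libraries allow. In BME it was 0.85 ± 0.43 by limma (adjusted p = 0.966).

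Vim encodes vimentin, the intermediate filament of mesenchymal cells. In BME it was at 0.306 (line 682), 0.429 (line 700) and 0.354 FPKM (line 889) without dox, at 0.118 in the mock library, and at 0.0873 (line 700) and 2.39 (line 889) with dox. On plastic, the untreated libraries held 0.447 (line 560), 0.205 (line 700) and 0.441 (line 889), and the dox libraries 2.53, 0.136 and 21.6. Vim was higher with dox in line 889 in both environments and in line 560, and lower in line 700 in both, so the arms overlapped. The 21.6 FPKM of dox line 889 on plastic rest on 595 reads, against 16 in its untreated partner. The limma change was 0.57 ± 0.45 in BME (adjusted p = 0.959) and 1.72 ± 1.00 on plastic (adjusted p = 0.712). Without dox line 889 the plastic change of Vim was 0.56. Without dox line 700 it was 2.71 on plastic and 1.39 in BME. In limma-voom on the rebuilt reads with the block it was 4.10 on plastic and 1.49 in BME, and Vim was not called there either.

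Fn1 encodes fibronectin, a matrix glycoprotein that binds integrins. In BME, Fn1 was at 4.42 (line 682), 2.67 (line 700) and 7.74 FPKM (line 889) without dox, at 14.8 in the mock library, and at 13.0 (line 700) and 17.7 (line 889) with dox. The mock library lay between the 2 dox libraries, and its pair differed by 1.54, between the 1.93 and 1.10 of the dox pairs of lines 700 and 889. On plastic, Fn1 was at 43.9 (line 560), 29.3 (line 700) and 232 (line 889) without dox and at 164, 459 and 199 with dox. Lines 560 and 700 were higher with dox there, by 1.88 and 3.92, and line 889 was slightly lower, by -0.22. The limma change of Fn1 was 1.16 ± 0.57 in BME (adjusted p = 0.959) and 1.86 ± 0.80 on plastic (adjusted p = 0.613). With the mock library left out, the BME change was 1.54. Without the untreated library of line 889 it was 2.75 on plastic.

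The FPKM values of Fn1 did not overlap between the environments, a pattern whose share among all genes was not counted. It held 2.67 to 17.7 FPKM in BME and 29.3 to 459 on plastic. The tables were normalized separately, so this was not tested. By rank within its own library, which does not depend on the scaling, Fn1 stood at percentiles 58.4 to 80.1 of all listed genes in BME and 88.3 to 99.1 on plastic. In dox line 700 on plastic it stood above Cdh1 and Epcam.

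Zeb1 encodes a zinc finger repressor of Cdh1 and other epithelial genes. In BME it was listed at 0 in untreated lines 682 and 700 and at 0.0105 FPKM in untreated line 889, at 0.0351 in the mock library, and at 0.116 (line 700) and 0.506 (line 889) with dox. The reads behind these were 0, 0, 1, 3, 9 and 47. On plastic, Zeb1 was at 0.0166 (line 560), 0.235 (line 700) and 0.0163 (line 889) without dox, from 2, 27 and 2 reads, and at 1.19, 2.24 and 3.37 with dox, from 144, 222 and 314 reads. In both environments each dox library lay above every control, and line 889 was highest. The pair changes of Zeb1 were 0.16 and 0.58 in BME, 0.05 in the mock pair, and 1.11, 1.39 and 2.10 on plastic for lines 560, 700 and 889.

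On plastic the limma change of Zeb1 was 1.53 ± 0.30 (SE, unadjusted p = 0.00178, adjusted p = 0.275), and over the 14 settings tried its adjusted p ran from 0.148, where organoid line was a block, to 0.821. Its exact permutation p of 0.1 was the smallest this design allows. In BME, where Zeb1 lay under the filter, the limma change without it was 0.36 ± 0.11 (unadjusted p = 0.0209, adjusted p = 0.966), with an exact permutation p of 0.0667, again the smallest possible for 2 against 4 libraries. Leaving out any 1 library on plastic kept the change of Zeb1 between 1.29 and 1.79. Its size depended on how low values were treated, with 3.72 at a pseudocount of 0.1, 5.45 in limma-voom on the rebuilt reads and 4.82 in limma-voom with the block.

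Zeb2, the paralog of Zeb1, was near 0 in every library. In BME it was listed at 0 in untreated lines 682 and 700 and in the mock library, and at 0.00647 to 0.0139 FPKM in the others. On plastic it held 0.0268 (line 560), 0 (line 700) and 0.0936 (line 889) without dox and 0.0852, 0.00651 and 0.156 with dox. The 5 dox pairs were all higher with dox, but by at most 0.08, and the arms on plastic overlapped. Its limma change on plastic without the filter was 0.06 ± 0.06 (adjusted p = 0.856). No difference in Zeb2 was detectable at this depth in BME, where the highest library had 2 reads.

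Snai1 and Snai2 encode the zinc finger repressors SNAIL and SLUG. Snai1 was between 0 and 0.207 FPKM in BME (0 to 5 reads) and between 0.0316 and 0.464 on plastic (1 to 12 reads). It was higher with dox in both BME pairs (0.14 and 0.06) and in line 700 on plastic (0.13), and lower in lines 560 (-0.13) and 889 (-0.11). No direction was shared by the lines on plastic, and the arms overlapped in both environments.

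Snai2 lay between 0.13 and 0.221 FPKM in BME (4 to 7 reads) and between 0.025 and 0.486 on plastic (1 to 16 reads). It was lower with dox in both BME pairs, by -0.06 and -0.11, and in the mock pair, by -0.04, and higher in all 3 pairs on plastic, by 0.07, 0.43 and 0.11 for lines 560, 700 and 889. Without the filter the limma change of Snai2 was -0.05 ± 0.04 in BME (adjusted p = 0.966) and 0.20 ± 0.12 on plastic (adjusted p = 0.787).

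Twist1 encodes a basic helix-loop-helix factor of the mesoderm. It was listed at 0 in every library of line 682 (BME) and line 700 (BME and plastic). In line 889 Twist1 was at 2.84 FPKM without and 2.10 with dox in BME (70 and 51 reads), and at 2.64 and 1.09 on plastic (84 and 26 reads). In line 560 it was at 5.29 without and 1.21 with dox on plastic (165 and 38 reads). Twist1 thus separated the lines, with 2 of 4 lines at 0 throughout, and in the lines where it was detected its level was lower with dox in all 3 pairs. The pair changes were -0.31 in BME and -1.51 and -0.80 on plastic for lines 560 and 889. The limma change was 0.33 ± 0.73 in BME (adjusted p = 0.979) and -0.77 ± 0.70 on plastic (adjusted p = 0.832). The plastic estimate ran from -1.52 without untreated line 700 to -0.20 without untreated line 560, and was -1.67 in limma-voom with the block. Blocking on organoid line turned the BME estimate of Twist1 to -0.15 by limma (adjusted p = 0.841). Line 889 supplies 1 of 2 dox but 1 of 4 control libraries in that arm comparison.

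**Figure D2:**
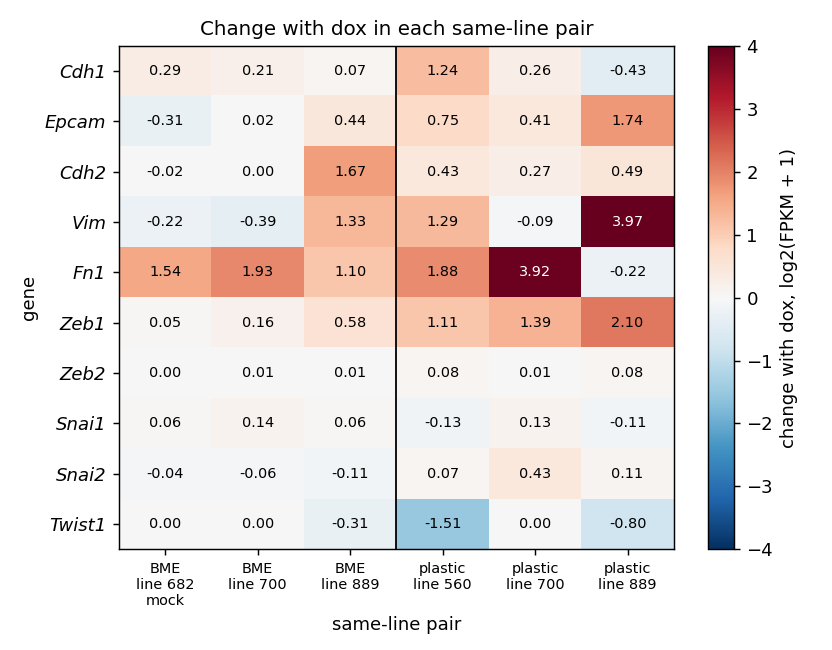
Difference between the dox and the untreated library of each same-line pair on the log2(FPKM + 1) scale, for the 10 EMT genes (rows) in 3 BME and 3 plastic pairs (columns), with the value printed in each cell. The first column is the mock pair. Zeb1 is positive in every column, from 0.05 to 2.10, while Vim and Fn1 differ in sign between lines.

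The order of the 10 genes within a library showed the same contrast between epithelial and mesenchymal genes. Cdh1 or Epcam was the highest of the 10 in 11 of the 12 libraries, the exception being Fn1 in dox line 700 on plastic. On the log2(FPKM + 1) scale, the level of Cdh1 was above that of Vim by 6.81 to 8.50 in BME. On plastic it was above by 7.01 to 8.54 in 5 libraries and by 3.72 in dox line 889, the smallest gap. The summed FPKM of the 5 factor genes in BME was 0.171 in untreated and 0.221 in mock line 682, 0.254 without and 0.430 with dox in line 700, and 3.24 and 2.96 in line 889. On plastic it was 5.48 without and 2.59 with dox in line 560, 0.673 and 3.19 in line 700, and 2.95 and 4.82 in line 889, so the lines did not share a direction.

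The change with dox was then compared between environments as the interaction of dox with environment in limma, over 11977 genes kept in both tables. Of these genes, 0 were called (0%) and 159 passed the unadjusted threshold (1.33%), and 0 members did either. The change on plastic minus that in BME was 0.12 ± 0.40 for Cdh1, 0.52 ± 0.65 for Epcam, 1.16 ± 1.22 for Vim, 0.70 ± 1.09 for Fn1 and -1.10 ± 1.09 for Twist1 (SE, limma adjusted p = 1 for each). The SE exceeded the estimate for 4 of these 5 genes, so the data do not show that their responses are alike. Without the filter, Zeb1 differed by 1.17 ± 0.31 (limma unadjusted p = 0.00356, adjusted p = 1), the lowest unadjusted p among the 10. With a pseudocount of 0.1 and no filter, an alternative added after the data were seen, it differed by 2.01 ± 0.78 (limma unadjusted p = 0.0259, adjusted p = 1). On the log2(FPKM + 1) scale the 3 plastic pairs of Zeb1 lay above both BME pairs, and they did so with a pseudocount of 0.1, at 2.80 to 4.90 against 1.11 and 2.46. The untreated BME libraries of lines 700 and 889 hold 0 and 1 read, so the order of plain ratios was not determined.

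**Figure D3:**
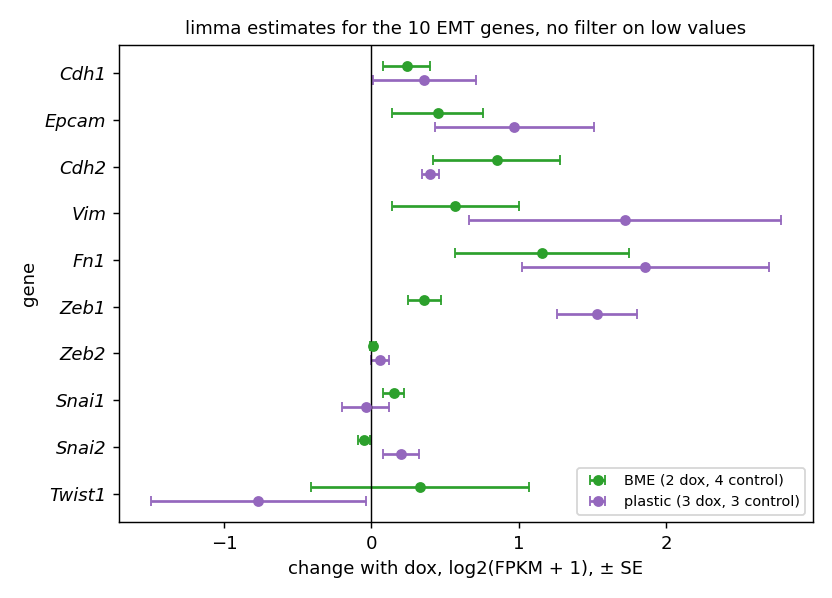
Change with dox by limma for the 10 EMT genes, without the filter on low values, on the log2(FPKM + 1) scale with SE bars, in BME (2 dox and 4 control libraries) and on plastic (3 and 3). The SE bars of Zeb1 in the 2 environments do not overlap (0.36 ± 0.11 and 1.53 ± 0.27), while those of Fn1 do.

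The other genes of the program were read from 5 lists. Of 34 genes of epithelial adhesion and junctions, all tested, 0 were called in BME and 0 on plastic. Their median change was 0.18 in BME, where 26 were above 0 and 8 below, and 0.10 on plastic, where 21 were above and 13 below. The median over all tested genes was -0.01 in BME and 0.01 on plastic. Krt8, a keratin of simple epithelia, was at 2210 to 2810 FPKM with dox and 929 to 1320 in controls in BME (1.13 ± 0.22, limma adjusted p = 0.959), with 0.51 in the mock pair and a limma change of 0.15 on plastic, where the arms overlapped. Ctnnb1, which encodes the β-catenin that links cadherins to the cytoskeleton and also acts in WNT signaling, was at 574 to 1210 FPKM with dox and 149 to 286 without on plastic (1.88 ± 0.38, limma adjusted p = 0.282). Cldn4, a tight junction claudin, was at 809 to 1640 and 509 to 664 FPKM in the same arms. In BME the arms of Ctnnb1 and Cldn4 overlapped. Every dox library lay above every control for 7 genes of the list and below for 0 in BME, where 5.52% and 4.95% of all genes did so, and above for 3 and below for 5 on plastic, where 6.37% and 6.39% did. Among the latter were Krt19, another simple keratin, at 1630 to 3060 FPKM with dox and 3960 to 5720 without (-0.95 ± 0.35, limma adjusted p = 0.567), and Rab25, a GTPase of epithelial membrane traffic, at 186 to 210 and 277 to 432, both chosen after their values were seen.

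Among 19 epithelial identity regulators, 18 were tested in BME and 17 on plastic, 0 were called in either, and the medians of 0.02 and 0.03 lay near those of all genes. Ovol2, a repressor of Zeb1 in epithelia, was lower with dox in all 5 dox pairs, at 1.45 to 2.52 FPKM with dox and 1.64 to 7.26 in controls in BME (-0.75 ± 0.45, limma adjusted p = 0.959), with -0.59 ± 0.29 on plastic (adjusted p = 0.649). The mock pair of Ovol2 differed by -0.81, from 7.26 to 3.73 FPKM, more than the -0.72 and -0.11 of the dox pairs in BME. Grhl2, another epithelial factor that opposes Zeb1, was lower in 4 of the 5 pairs, with changes of -0.30 ± 0.16 and -0.56 ± 0.24 (limma adjusted p = 0.959 and 0.606). For Gata6, an endoderm factor, dox line 700 held 10.6 FPKM and dox line 889 held 104 in BME, where controls held 10.5 to 26.9. On plastic, dox lines 560, 700 and 889 held 94.4, 13.5 and 132, and untreated libraries 9.18 to 14.7.

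Of 19 other EMT transcription factors, 12 were tested in each environment and 0 were called, with medians of -0.02 in BME and 0.12 on plastic. The unadjusted threshold was passed by 2 of the 12 in BME (Id1 and Id3), against 0.954% of all genes, and by 4 on plastic (Id1, Id3, Tcf4 and Tbx3), against 3.64%, all of them higher with dox. In BME no factor of the list other than these ID genes passed. Of the adhesion list, 2 of 34 passed in each environment, all higher. Identity regulators gave 0 in BME and 1 higher on plastic. The mesenchymal cytoskeleton list gave 0 in BME, and 1 higher and 2 lower on plastic. The matrix list gave 1 lower in BME and 1 higher on plastic. Every dox library lay above every control for 2 genes of the list and below for 1 in BME, and above for 3 and below for 0 on plastic, against the same shares of all genes as above (5.52% and 4.95%, 6.37% and 6.39%). Id3, an inhibitor of basic helix-loop-helix factors and a known target of BMP signaling, was at 22.7 to 30.8 FPKM with dox and 0 to 1.94 in controls in BME (4.09 ± 0.43, limma adjusted p = 0.157) and at 7.67 to 56.3 and 0.248 to 2.71 on plastic (3.90 ± 0.79, adjusted p = 0.281). Tcf4, a helix-loop-helix partner of TWIST proteins, held 4.07, 0.986 and 3.38 FPKM without dox on plastic for lines 560, 700 and 889, and 14.1, 3.52 and 21.4 with dox. The dox values of Tcf4 and Gata6 in lines 560 and 889 lay above all untreated libraries on plastic, and those of line 700 within their range.

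Of 24 genes of the mesenchymal cytoskeleton, adhesion and surface, 11 passed the filter in each environment and 0 were called, with medians of 0.20 in BME (9 above 0 and 2 below) and 0.07 on plastic (7 and 4). S100a4, a calcium-binding protein often used as a mesenchymal marker, was lower with dox on plastic in all 3 pairs, at 2.63 to 8.84 FPKM against 10.7 to 19.7 (-1.26 ± 0.41, limma adjusted p = 0.528). It was also lower in both BME dox pairs (-0.95 and -0.55) and in the mock pair (-0.83). Itga5, the α5 chain of the fibronectin receptor, was higher with dox in all 5 dox pairs, by 0.47 to 1.65, and in the mock pair, by 0.61, with overlapping arms in both environments. Itgav, the αv chain of other matrix receptors, was higher in 4 of the 5 dox pairs and in the mock pair (0.45). Itgb1, the β1 chain of receptors for fibronectin, collagen and laminin, overlapped between the arms in both environments, at 115 to 138 FPKM with dox and 82.6 to 116 in controls in BME and at 254 to 347 and 123 to 258 on plastic. Of 29 mesenchymal matrix and secreted genes, 9 passed the filter in BME and 8 on plastic, again with 0 called. Their medians were 0.70 in BME (5 above 0 and 4 below) and 0.58 on plastic (6 and 2), and the BME median was 0.17 with the replicate block. Plaur, the receptor of the urokinase plasminogen activator, was at 72.2 to 73.6 FPKM with dox and 28.7 to 56.9 in controls in BME (0.70 ± 0.28, limma adjusted p = 0.959). On plastic it was higher with dox in all 3 pairs, at 305, 1580 and 974 FPKM in lines 560, 700 and 889 against 209, 381 and 330, although the arms overlapped. Plaur differed by 0.27 in the mock pair.

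Markers of other cell types were read beside Vim, Cdh2 and Zeb1, since these genes are also expressed by stromal cells. In bulk RNA, fewer cells of a type and less RNA per cell cannot be told apart. The summed level of 9 fibroblast markers was 0.681 to 5.97 FPKM in BME dox and 0.928 to 3.29 in BME control libraries, and 0.161 to 0.484 and 0.186 to 0.339 on plastic. In BME, dox line 889 held the highest sum (5.97), with Col1a1 at 4.13 and Dcn and Lum at 0, and it was also the library with the highest Cdh2, Vim and Zeb1. The part of those markers in the BME values was not tested. On plastic, dox line 889 held the lowest fibroblast sum of the 6 libraries (0.161), with Col1a1, Col1a2, Pdgfrb, Dcn, Lum and Thy1 at 0, beside the highest Vim (21.6) and Zeb1 (3.37).

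The summed level of 7 immune markers was 6.46 to 17.4 FPKM in BME and 2.83 to 38.8 on plastic. Cd68, a lysosomal protein, gave most of each sum, and the 38.8 of dox line 889 on plastic was made up of 38.7 from Cd68, with Ptprc, the pan-leukocyte marker, at 0.0239 and Lyz2 at 0. The 5 endothelial markers summed to 0.227 to 4.14 FPKM in BME and 0.133 to 3.17 on plastic, with Tek at 3.62 in BME dox line 889. The 6 smooth muscle markers summed to 6.14 to 9.83 in BME and 2.95 to 5.37 on plastic, and the 5 glial and neuronal markers to 0.781 to 1.63 and 0.336 to 0.911. The 12 markers of intestinal epithelium, which include Cdh1, Epcam and Krt8, summed to 9710 to 11400 FPKM with dox and 5800 to 7010 in controls in BME, and to 12800 to 17800 and 13500 to 15700 on plastic. The keratins Krt8, Krt18 and Krt19 gave most of the difference in BME, while Lgals4 held 1580 to 1880 FPKM with dox and 1200 to 1810 in controls. Lgr5, a stem cell marker of this list, was lower in both BME dox pairs (43.0 to 12.3 and 71.1 to 29.2) and in the mock pair (48.1 to 15.7). The plastic pairs of Lgr5 shared no direction, at 15.1 to 15.2 (line 560), 0.374 to 0.0744 (line 700) and 0.23 to 1.21 (line 889).

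**Figure D4:**
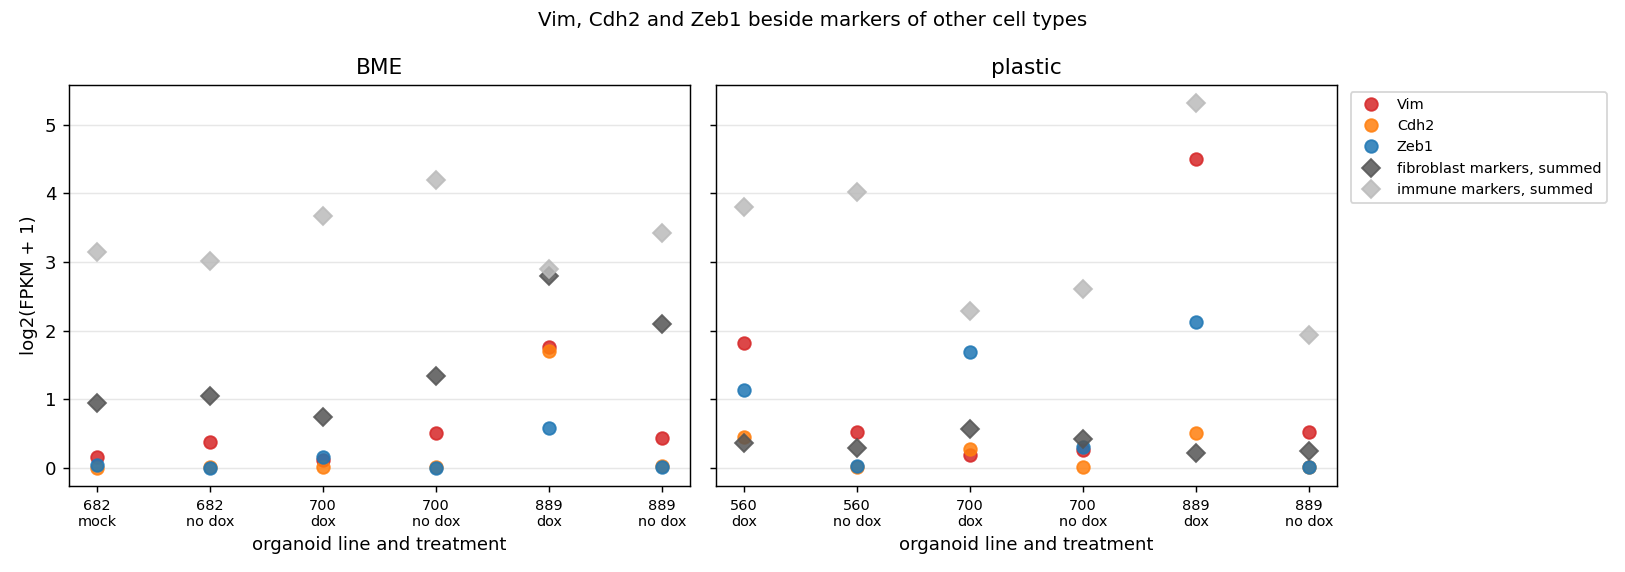
Level of Vim, Cdh2 and Zeb1 (circles) and summed level of 9 fibroblast and 7 immune markers (diamonds), as log2(FPKM + 1), in each library of BME (left) and plastic (right). In BME dox line 889 the fibroblast sum (5.97 FPKM) is highest together with Vim, while in plastic dox line 889 Vim is at 21.6 FPKM and the fibroblast sum at 0.161.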

How the data were processed

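RNA-Seq libraries were analysed from the FPKM tables deposited by the authors, 1 table per environment, each normalized on its own 6 libraries. Per the study's methods, the authors processed reads with kallisto and DESeq2, and the submitters' processing notes name mm9. Versions and the transcript annotation are not given in the sources used here. The authors' comparison tables (mean normalized counts, log2 fold changes, SE, Wald statistics and p-values) were not used.

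FPKM were converted to log2(FPKM + 1), genes averaging 0.5 FPKM or more were kept, and dox was compared with control in limma 3.58.1 (R 4.3.3, eBayes with trend, two-sided, Benjamini-Hochberg adjustment over all tested genes). Calls required both an adjusted p below 0.05 and a change of more than 1 in size. Environments were compared by the interaction of dox with environment, with a term for environment, since levels were not tested across tables. The fits were tested on simulated data with large changes in well expressed genes, a small spread and no line effect. This does not show their power for the low or variable genes here. Single genes also had exact permutation tests. Reads were rebuilt from the steps of low FPKM values (98.1% to 98.8% of values up to 10 reads were within 0.1 of a whole read). They cover counting only. In the main fits, p-values measure the spread between the libraries of an arm and ignore the pairing by line. With the line as a block, they measure the spread left after the line is taken out.

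Both libraries of a line in an environment are taken to come from the same animal. Their deviations from the group means correlated by 0.65, 0.71 and 0.74 in BME and 0.46, 0.61 and 0.25 on plastic. The study states no block, so the line was a block only in an alternative. The other alternatives were a pseudocount of 0.1, no filter, rescaling all libraries to an equal FPKM sum, limma-voom on the rebuilt reads, lines 700 and 889 alone, and leaving out each library, the mock one included. The members and gene lists were chosen with earlier results of these data known. All 10 members are named, and from each of the 5 gene lists at most the 4 genes with the largest absolute mean of the changes in both environments, of which the text gives a part. A gene of the matrix list that this rule names is not reported here.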

Additional observations from a re-analysis of the deposited data

Results flagged for a closer look

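In 10 groups of 4 BME control libraries, 1 for each EMT gene, a sample stood far from the others for 2 genes. The rate of about 1 in 20 that chance gives does not apply to them, since the other 3 controls are at 0 and any value above 0 stands apart. Twist1 was at 2.84 FPKM in untreated line 889 and listed at 0 in the others. Zeb2 was at 0.00647 FPKM in the same library, from 1 read, and at 0 in the others.

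Snai2 differed in opposite directions in the environments, lower with dox in 2 of 2 BME pairs and higher in 3 of 3 plastic pairs, and it was also lower in the mock pair (-0.04). The mean pair change on plastic was above that in BME by 0.29. This difference was not tested on the pairs. In the limma interaction without the filter it was 0.26 (adjusted p = 1), and it rests on at most 16 reads per library.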

How the results depend on the processing

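Over 248 values of the members' changes under the alternatives, 239 were labelled the same, 2 moved and 7 reversed, and no member was called under any. For tested members, the same means an equal direction and side of the threshold. For members under the filter it means a shift smaller than the pooled SD. The 2 labelled as moved are Zeb2 in BME, at 0.01 in each setting, where the pooled SD rounds to 0, so they are no real shift. Twist1 in BME went from 0.33 to -0.15 with the replicate block, to -0.15 with the block and no filter, to -0.43 with the block in limma-voom, and ran from -0.48 (without dox line 889) to 1.15 with 1 library left out. The environment difference of Cdh1 went from 0.12 to -0.22 in lines 700 and 889 alone and ran from -0.20 to 0.32 with 1 library left out, and those of Vim from -0.01 to 2.15, Epcam from 0.11 to 1.04, Fn1 from 0.11 to 1.58 and Twist1 from -1.92 to -0.28. The replicate block changed the call of no member where it was run, which leaves out the environment difference of the 5 members under the filter.

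Counts of called genes over all genes depended more on the settings, and the cause was not tested. In BME the 3 calls became 1 with a pseudocount of 0.1, and 0 with the replicate block, with limma-voom, with the block and no filter and with the block in limma-voom, and ran from 0 to 37 (without dox line 700) with 1 library left out. On plastic the 4 calls became 10 with a pseudocount of 0.1, 0 with no filter, 11 after rescaling, 7 with the replicate block, 0 with limma-voom, 1 with the block and no filter and 0 with the block in limma-voom, and ran from 0 to 55 (without dox line 700). The 0 calls by limma for the environment difference became 5 with no filter and 11 with no filter and a pseudocount of 0.1. They remained 0 with any 1 library left out. In the main fit, 159 genes had a limma unadjusted p under 0.05 and a change of more than 1 in size. Of 30 list medians under the alternatives, 27 kept their sign. In BME that of the epithelial identity regulators went from 0.02 to -0.10 with the replicate block and -0.05 after rescaling, and that of the other EMT factors from -0.02 to 0.01 after rescaling. With 2 or 3 dox libraries and under 20 reads behind many values of Zeb2, Snai1 and Snai2, differences of these genes are limited by depth. The alternatives of the block with no filter, of the block with limma-voom and of the lower pseudocount with no filter were chosen after seeing the data.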
